A study of Drosophila melanogaster with 4 samples.

Results

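The regions described here are stretches of the distal X chromosome of Drosophila melanogaster that the authors deposited as enriched for HP1a (heterochromatin protein 1a). They are the enriched regions, called clusters here, of the combined set that the authors deposited for the series, whose midpoint lay on X at or below position 20422827, more than 2 Mb from the proximal end of the X sequence. This rule took 1120 of the 5583 clusters of the combined set. It uses position alone, not a measured value. All coordinates are on FlyBase r5, where position 1 of X is the tip and the high-numbered end faces the centromere.

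The material was chromatin from the heads of adult flies of the wild-type strain Oregon-R (Oregon-R-modENCODE), of developmental stage Mixed Adult. Heads were sieved from flies of population cages, so each library pools many animals and every cell type of the head, and the labels used here do not state the sex of the flies. Crosslinked, sonicated chromatin was precipitated with the antibody wa191 against HP1a in 2 ChIP libraries, and 2 input libraries served as their references, 1 for each. No group carries a mutation or a treatment. The comparisons are therefore between the replicates and between parts of the genome.

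HP1a is a small chromosomal protein whose chromodomain binds histone H3 methylated at lysine 9 and whose chromoshadow domain pairs with other proteins. It coats the pericentric heterochromatin and chromosome 4 of the fly, takes part in capping the chromosome ends and represses many transposable elements. It is also found at separate sites within euchromatin, and distal X is largely such euchromatin. The X is the chromosome that males carry in a single copy and whose transcription they raise by dosage compensation.

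HP1a clusters on distal X were many, short and scattered over the whole arm. Replicate 1 held 507 clusters that covered 1.48 Mb, 7.23% of the span, and replicate 2 held 751 clusters that covered 2.15 Mb, 10.5% of the span. The mean was 629 ± 173 clusters and 8.89% ± 2.34 coverage (SD, n = 2). Replicate 2 thus held 1.48 times as many clusters as replicate 1, and their lengths were alike, with a median of 2096 bp for replicate 1 and 2104 bp for replicate 2. The lower and upper quartiles of length were 1650 and 3147 bp in replicate 1, and 1652.5 and 3161 bp in replicate 2. The 1120 combined-set clusters had a median length of 2007 bp and covered 15.7% of the span.

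Each cluster carries a score given by the authors. No label or header states its scale, so it serves only to rank regions within a list. Replicate 1 had a median score of 0.86 on distal X and replicate 2 one of 0.84, while the combined set had 0.60. Long clusters tended to score higher: Spearman's rho of length and score was 0.68 across the 507 clusters of replicate 1, 0.73 across the 751 of replicate 2 and 0.56 across the 1120 of the combined set. These values describe regions of the same libraries and carry no test.

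About as many combined-set clusters were met by both replicates as by neither. A cluster counts as met when it shares at least 1 bp with a cluster of the replicate. Both replicates met 371 of the 1120, or 33.1%, where 45.8% of the combined-set clusters of all sequences, heterochromatin included, were met by both. Replicate 1 alone met 73, replicate 2 alone met 296, and 380 were met by neither. By bases the picture was different. The 371 clusters met by both held 57.6% of the bases of the 1120, and the 380 met by neither held 17.1%. Under a stricter rule, with at least 50% of a cluster's bases inside clusters of each replicate, 300 of the 1120 were supported, which is 26.8%, where 40.0% of the combined-set clusters of all sequences passed. The same rule applied to a single replicate gave 379 clusters for replicate 1 and 633 for replicate 2.

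Support went with length. The median length was 3843 bp for clusters met by both replicates, 1875 bp for those met by replicate 1 alone, 1963 bp for those met by replicate 2 alone and 1272 bp for those met by neither. Of the 380 met by neither, 201 were shorter than 1301 bp, the length of the shortest cluster in either replicate list, so no deposited replicate cluster was as short as these. Support at 50% or more in both replicates was found for 11 of 319 clusters over 1300 and up to 2000 bp and for 100 of 253 over 2000 and up to 3000 bp. It was found for 69 of 96 over 5000 and up to 10000 bp and for 29 of 31 over 10000 bp. Support also went with the score: 204 of the 280 highest-scored clusters were supported in both replicates, against 12 of the 280 lowest-scored ones. The combined set draws on the same 2 ChIP libraries as the replicate lists, so these links with length and score describe the lists and are not independent evidence.

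**Figure D1:**
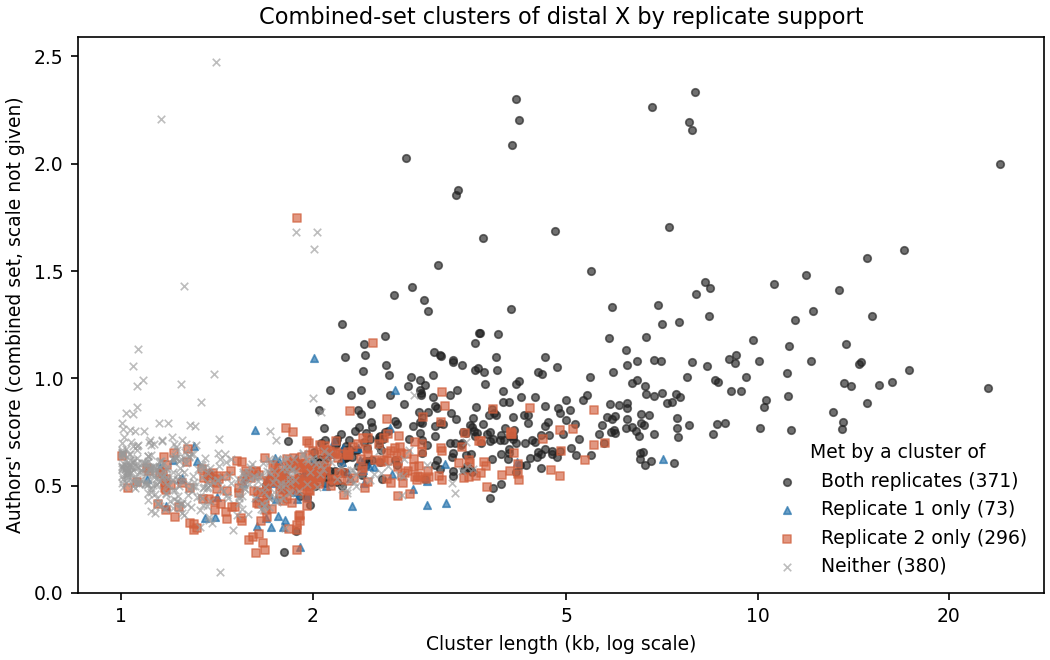
Each point is 1 of the 1120 combined-set clusters of distal X, with its length in kb on a log axis and the authors' score, whose scale is not given, on the vertical axis. Black circles (371, both replicates) fill the long and high-scored part, and grey crosses (380, neither replicate) gather at lengths near 1 to 2 kb and scores near 0.5.

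Clusters of 10 kb or longer made up 31 of the 1120 and held 13.3% of their bases. Both replicates met all 31, and 29 were covered to at least 50% in both. The 2 others lay from 16298442 to 16308536, with 41.0% of its bases covered in replicate 1 and 69.4% in replicate 2, and from 20077916 to 20091542, with 22.1% covered in replicate 1 and 59.9% in replicate 2. The 31 were spread over 17 of the 21 windows of the span (1 Mb each, the most proximal one shorter), with at most 4 in a window. Their inner structure was broken in most cases: 25 of the 31 held more than 1 cluster of at least 1 replicate, up to 5 of replicate 1 and up to 4 of replicate 2.

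The longest cluster of distal X stood at the tip of the chromosome, from 80 to 24122 (24.0 kb). Its score was 2.00 in the combined set, and 98.5% of its bases lay in clusters of replicate 1 and 99.0% in clusters of replicate 2. Replicate 2 had it as 1 cluster from 72 to 23870, with a score of 2.11. Replicate 1 had 2 clusters there, and the longer one spanned 138 to 18688 at a score of 2.14. These were also the longest distal X clusters of each replicate list. The next combined-set cluster inward, from 30138 to 31310, was 1173 bp long with a score of 0.53 and was met by replicate 2 alone. Nearly all of the block at the tip was thus covered in both replicates, as 1 cluster in replicate 2 and as 2 in replicate 1.

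The second longest cluster lay from 6873376 to 6896394 (23.0 kb, score 0.96). Replicate 2 covered 95.4% of it with 1 cluster, while replicate 1 covered 71.8% with 5 separate clusters. The third lay from 11303514 to 11320818 (17.3 kb, score 1.04). Clusters of replicate 1 took up 74.0% of it and those of replicate 2 took up 95.8%. Both replicates had it as 2 clusters. In these 2 regions replicate 2 covered more of the bases than replicate 1.

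Other long clusters were covered over most of their length in both lists. The one from 6637996 to 6655014 (17.0 kb, score 1.60) was a single cluster in each list, which covered 94.1% of it in replicate 1 and 99.8% in replicate 2. The one from 17958212 to 17973050 (14.8 kb, score 1.56) was so too, with 97.1% covered in replicate 1 and 99.1% in replicate 2. The clusters from 17996878 to 18012008 (15.1 kb, score 1.29) and from 6621628 to 6636180 (14.6 kb, score 1.08) had at least 86.1% of their bases covered in each replicate, as 2 clusters in replicate 1 and 1 in replicate 2. These 4 formed 2 pairs: 1815 bp parted the clusters that start at 6621628 and 6637996, and 23.8 kb those that start at 17958212 and 17996878. The remaining 3 of the 10 longest lay from 2318742 to 2335028 (16.3 kb, score 0.98), from 19476622 to 19492124 (15.5 kb, score 0.97) and from 14960684 to 14975562 (14.9 kb, score 0.88). All 3 were split into 3 or more clusters in at least 1 replicate.

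The highest-scored supported clusters were mostly single clusters in each replicate. Among the 300 supported at 50% or more in both replicates, the 10 with the highest scores had a median length of 5527 bp. Of these 10, 9 were 1 cluster in each replicate. Each of the 10 was covered to at least 93.9% in replicate 1 and 96.6% in replicate 2. The first was the cluster from 1521738 to 1529714 (7.98 kb). Its score was 2.33 in the combined set, 2.67 in replicate 1, where it was the highest of distal X, and 2.06 in replicate 2. The second, from 12825884 to 12830048 (4.17 kb, score 2.30), was the highest-scored distal X cluster of replicate 2, at 2.48, and had 2.18 in replicate 1. The third ran from 4824278 to 4831112 (6.84 kb), with scores of 2.27 in the combined set, 2.26 in replicate 1 and 2.30 in replicate 2.

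The cluster from 4990016 to 4997816 (7.80 kb, score 2.19) lay in the same 1 Mb window as the third. Both lie in a window, 4 to 5 Mb from the tip, of low coverage as a whole: with these clusters included, 3.88% of it lay in clusters of replicate 1 and 5.58% in clusters of replicate 2. The others were those from 2505642 to 2509860 (4.22 kb, score 2.21), from 10242860 to 10250752 (7.89 kb, score 2.16), from 10991880 to 10995998 (4.12 kb, score 2.09), from 11465742 to 11468538 (2.80 kb, score 2.03) and from 322414 to 325798 (3.39 kb, score 1.88), and the block at the tip. The tip was the only region that ranked among both the 10 longest clusters and these 10.

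Some of the highest scores belonged to short clusters that neither replicate held. The highest score of all 1120, 2.47, was that of a 1409 bp cluster from 19030624 to 19032032, and the fifth highest, 2.21, that of a 1155 bp cluster from 326322 to 327476. The same 2 scores recurred elsewhere in the combined set, in 3 clusters and 10 clusters in all, when scores were compared to 6 decimals. The cluster at 326322 began 523 bp after a cluster that both replicates supported, the one from 322414 to 325798. The cluster at 19030624 had no such neighbour, since the nearest member lay 12209 bp away and was met by neither replicate. With no read counts in the lists, the number of reads behind these scores is unknown.

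At the proximal border of the span, the last clusters inside were those from 20375100 to 20377140 (score 0.85, met by both replicates) and from 20381498 to 20383290 (score 0.31, met by replicate 1 alone). The first clusters outside were those from 20542378 to 20543502 (score 0.61, met by replicate 2 alone) and from 20562316 to 20564062 (score 0.51, met by neither). No cluster lay across the border.

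Coverage rose and fell along the arm, and the most and least covered windows were the same in both replicates. In the 20 full windows of 1 Mb counted from the tip, the lowest, median and highest coverage were 2.10%, 6.84% and 12.9% in replicate 1 and 3.84%, 9.96% and 18.6% in replicate 2. The most covered window in both lists was that from 11 to 12 Mb, followed by that from 6 to 7 Mb, at 12.6% in replicate 1 and 17.6% in replicate 2. The stretch from 15 to 17 Mb came next, at 10.1% and 11.5% in its 2 windows in replicate 1 and 17.0% and 16.0% in replicate 2. The least covered windows in both lists were those from 3 to 4 Mb, and from 12 to 13 Mb at 2.72% in replicate 1 and 3.91% in replicate 2. The window from 12 to 13 Mb directly follows the most covered one.

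Replicate 2 lay above replicate 1 in 20 of the 20 full windows, by a factor of 1.23 to 1.95. Spearman's rho between the replicates across these 20 windows was 0.92, a description of windows that share their libraries. The counts of supported clusters ran alike: 30 lay in the window from 11 to 12 Mb, 24 in each of the windows from 15 to 16 and from 16 to 17 Mb and 22 in that from 6 to 7 Mb, against 4 in that from 3 to 4 Mb and 7 in that from 12 to 13 Mb.

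**Figure D2:**
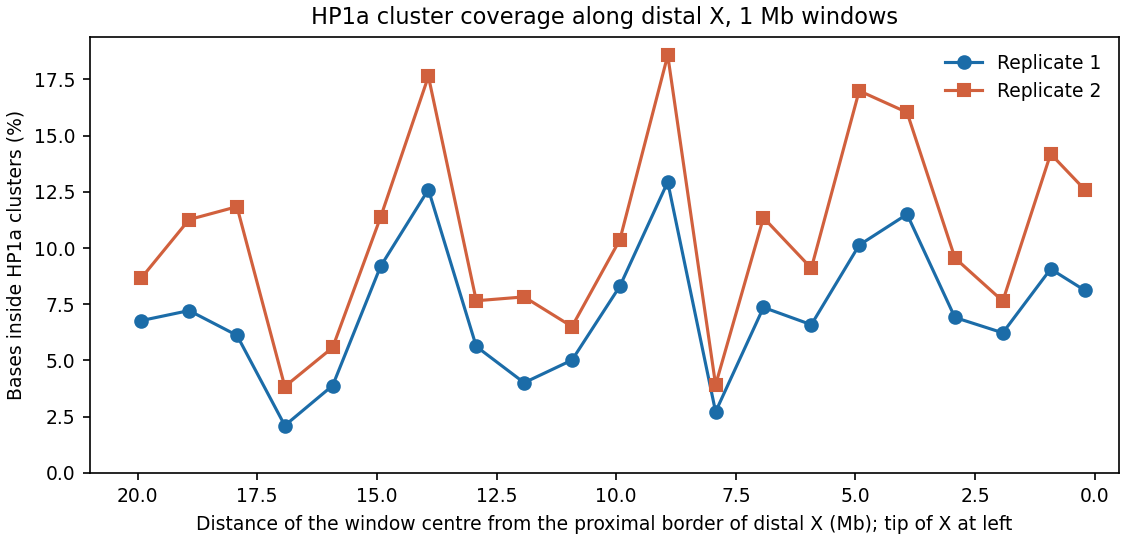
Percent of bases inside HP1a clusters in 1 Mb windows of distal X (vertical axis), for replicate 1 (blue circles) and replicate 2 (orange squares), against the distance of the window centre from the proximal border of the span in Mb, with the tip of X at left. Both lines have their 2 highest and 2 lowest points in the same windows, and replicate 2 lies above replicate 1 in all 20 full windows and in the shorter one at the border.

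At the scale of 100 kb the clusters were more uneven. Of 204 bins, 46 held no covered base in replicate 1, 33 held none in replicate 2 and 26 held none in either. The 20 most covered bins of each replicate held 32.1% of its covered bases in replicate 1 and 29.4% in replicate 2, and 12 bins belonged to the 20 of both. The densest bin by the lower of its 2 replicate values was that from 6600001 to 6700000, with 36.6% of its bases covered in replicate 1 and 42.3% in replicate 2. It holds 2 of the 10 longest clusters. The bin from 16300001 to 16400000 followed, at 36.0% and 41.4%, then that from 6400001 to 6500000, at 29.7% and 38.6%. The bin at the tip, from 1 to 100000, had 28.4% and 32.8%, and that from 10700001 to 10800000 had 25.3% and 36.0%. The tip bin drew its coverage mainly from the single 24.0 kb block, with 1 supported cluster of 8, whereas the bin at 16300001 held 7 supported clusters of 12. In all, 18 bins had 20% or more of their bases covered in each replicate.

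**Figure D3:**
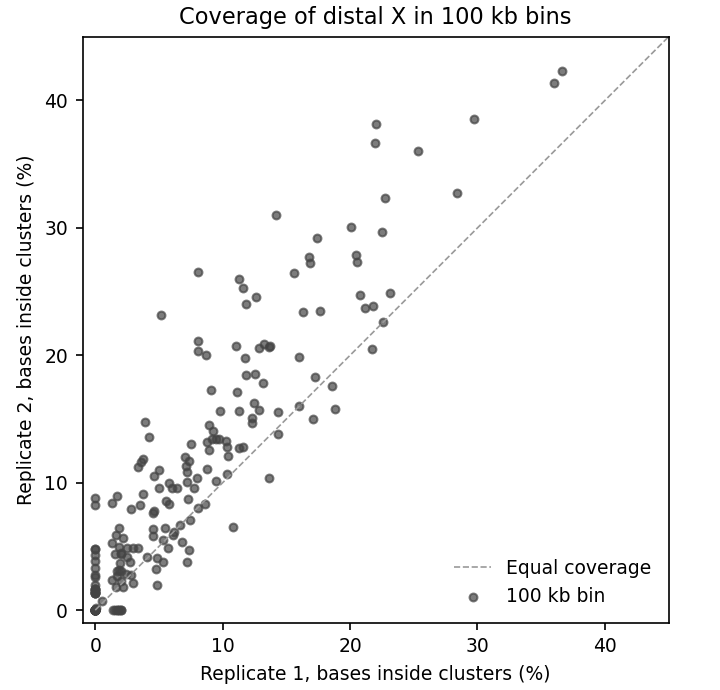
Each point is 1 of 204 bins of 100 kb on distal X, with its percent of covered bases in replicate 1 (horizontal axis) and replicate 2 (vertical axis), and the dashed line marks equal coverage. Replicate 2 was higher in 148 bins and replicate 1 in 30, and the densest bin reached 36.6% in replicate 1 and 42.3% in replicate 2.

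Clusters stood close together in places and far apart in others. The median gap to the next cluster was 12635 bp for replicate 1, 7483 bp for replicate 2 and 5161 bp for the combined set, while the mean gap was 37.4 kb in replicate 1, 24.3 kb in replicate 2 and 15.4 kb in the combined set. Of the gaps, 31.4% in replicate 1 and 41.9% in replicate 2 were under 5 kb. When clusters less than 5 kb apart were joined into runs, replicate 1 gave 348 runs, of which 261 were single clusters and 11 held 5 or more. Replicate 2 gave 437 runs, of which 281 were single clusters and 22 held 5 or more. The run with the most clusters was at the same place in both replicates: 9 clusters from 16355564 to 16398937 (43.4 kb) in replicate 1 and 11 clusters from 16354105 to 16400525 (46.4 kb) in replicate 2. The combined set gave 572 runs, of which 336 were single clusters and 44 held 5 or more. Its run with the most clusters lay elsewhere, with 16 clusters from 11439080 to 11499520 (60.4 kb).

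At the other extreme, 28 stretches longer than 100 kb had no cluster in any of the 3 lists. They added up to 4.39 Mb, or 21.5% of the span. The longest ran from 9561895 to 9930197 (368 kb), followed by those from 14185134 to 14476164 (291 kb), from 2686935 to 2971447 (285 kb), from 12005163 to 12221405 (216 kb) and from 3387875 to 3603555 (216 kb). The fourth lies in the thinly covered window from 12 to 13 Mb and the fifth in that from 3 to 4 Mb. A list of regions cannot tell sequence without HP1a from sequence where reads could not be placed or were too few.

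**Figure D4:**
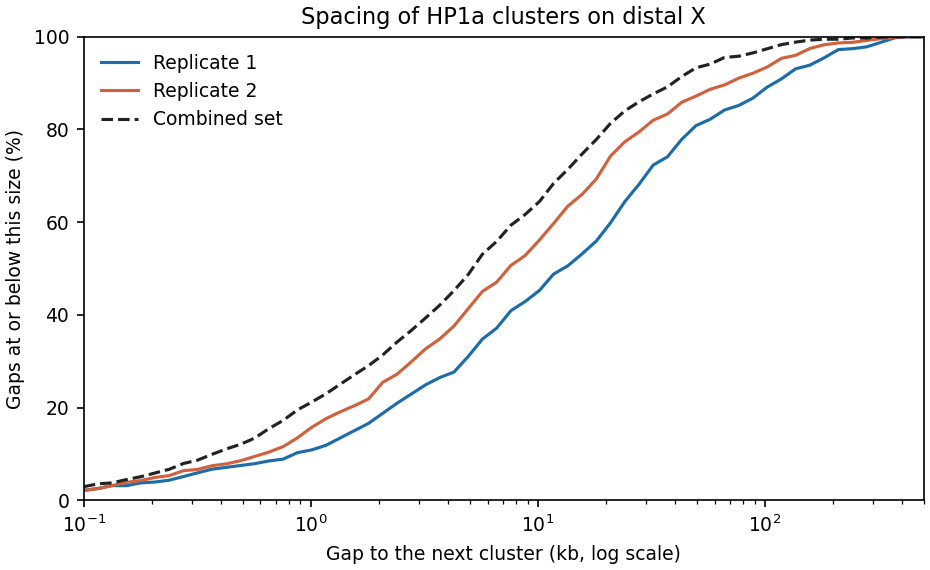
Share of gaps between neighbouring clusters of distal X at or below a given size (vertical axis, percent) against gap size in kb (log scale), for replicate 1 (blue), replicate 2 (orange) and the combined set (dashed black). The curve of replicate 2 lies left of that of replicate 1, with medians of 7483 bp and 12635 bp, and that of the combined set lies left of both, at 5161 bp.

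The replicates shared most of what replicate 1 had called. Of its 507 distal X clusters, 423, or 83.4%, met replicate 2, where 82.4% of its clusters on all sequences did. In the opposite direction 424 of 751, or 56.5%, met replicate 1, where 79.5% of the replicate 2 clusters on all sequences did. Both shares over all sequences include the clusters of heterochromatin. Of the covered bases, 1.20 Mb were common, 0.274 Mb were in replicate 1 alone and 0.949 Mb in replicate 2 alone, which gives a Jaccard index (shared over all covered bases) of 0.50. Put as shares of each list, 81.5% of the covered bases of replicate 1 lay in replicate 2, and 55.9% of those of replicate 2 lay in replicate 1.

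Unshared clusters were shorter and scored lower at the median than shared ones. In replicate 2 the 327 clusters that met none of replicate 1 had a median length of 1744 bp and a median score of 0.77, against 2806.5 bp and 0.93 for the 424 that did. In replicate 1 the 84 unshared clusters had medians of 1592 bp and 0.78, against 2318 bp and 0.88 for the 423 shared ones. The longest unshared cluster of replicate 1 lay from 5288921 to 5294578 (5.66 kb, score 0.87) and that of replicate 2 from 13109167 to 13114692 (5.53 kb, score 1.06). The longest shared cluster of each list was the block at the tip. The depth of the libraries is unknown, so a cluster missing from 1 list does not show that HP1a was absent there.

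Where both replicates had a single cluster within the same combined-set cluster, their edges were close. Over these 282 pairs the starts differed by a median of 252 bp and the ends by 251 bp, and in 151 pairs both edges lay within 500 bp. Replicate 2 had the longer cluster in 197 of the 282. The scores of the replicates ran together across the 371 combined-set clusters met by both, with Spearman's rho 0.64 and Pearson's r 0.80. This is a description across regions that share their libraries, and regions are not independent replicates.

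Set beside the distal parts of 2L, 3L and 3R, also taken beyond 2 Mb from their proximal ends, distal X was covered more densely in both replicates. The arm 2R was not compared, so the autosomal parts named here and below are these 3 only. Distal X was covered to 8.89% ± 2.34, against 3.71% ± 0.132 for distal 2L, 3.47% ± 0.407 for distal 3L and 2.76% ± 0.434 for distal 3R (SD, n = 2 each). Relative to these 3 autosomal parts pooled, X was 2.38 times as covered in replicate 1 (7.23% against 3.04%) and 3.00 times in replicate 2 (10.5% against 3.51%), which averaged 2.69 ± 0.439 (SD, n = 2). The gap between X and each arm exceeded the spread between the replicates, but the values are paired within each library and a two-sided exact permutation test of 2 pairs cannot give a p below 0.5, so no test was made. X is also a single arm.

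Distal X held more clusters per Mb, of about the same median length. In replicate 1 there were 24.8 clusters per Mb on distal X, against 12.9 on distal 2L, 12.2 on distal 3L and 10.2 on distal 3R. In replicate 2 there were 36.8 per Mb on distal X, against 13.4, 14.8 and 13.2 on those arms. The median lengths on X, 2096 and 2104 bp, stood beside 2045.5 and 2033 bp on the 3 autosomal parts pooled. Long clusters were also more numerous by count. Supported clusters of 10 kb or longer numbered 29 of 1120 on distal X. They numbered 8 of 516 on distal 2L, 8 of 619 on distal 3L and 1 of 608 on distal 3R. In replicate 1, 10 of 507 X clusters were that long, against 5 of 271, 4 of 276 and 0 of 263 on those arms. In replicate 2 they were 13 of 751 on X, against 5 of 282, 4 of 334 and 0 of 342. As shares of the replicate lists, X and 2L were thus close.

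Clusters on distal X also carried higher scores. In replicate 1 the median was 0.86 on X, against 0.69 on distal 2L, 0.67 on distal 3L and 0.69 on distal 3R. In replicate 2 it was 0.84 on X, against 0.67 on each of the 3 autosomal parts. Relative to the autosomal parts pooled, the difference of medians came to 0.18 in replicate 1 and 0.17 in replicate 2, averaging 0.173 ± 0.00689 (SD, n = 2). This mean takes the 2 lists to share a scale, which is not stated, so the small SD does not measure precision. Within each list, 87.8% of the X clusters of replicate 1 and 85.4% of those of replicate 2 scored above the autosomal median. The low end of the scores was higher too: in replicate 1 the tenth percentile was 0.66 on X against 0.46 on distal 2L, and in replicate 2 it was 0.63 against 0.49.

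Against the autosomal parts pooled, the higher scores were present in each length class. Among clusters up to 2 kb the median was 0.75 on X against 0.57 on the autosomal parts in replicate 1, and 0.72 against 0.58 in replicate 2. Among clusters over 2 kb and up to 4 kb it was 0.94 against 0.75 in replicate 1, and 0.90 against 0.76 in replicate 2. Above 4 kb it was 1.11 against 1.00 in replicate 1, and 1.16 against 0.92 in replicate 2. In this class distal 2L alone had 1.13 in replicate 1, above X. The class also differed most between the replicates, with differences of 0.12 and 0.23. Since the scale of the score is not given, its size cannot be read as a fold.

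**Figure D5:**
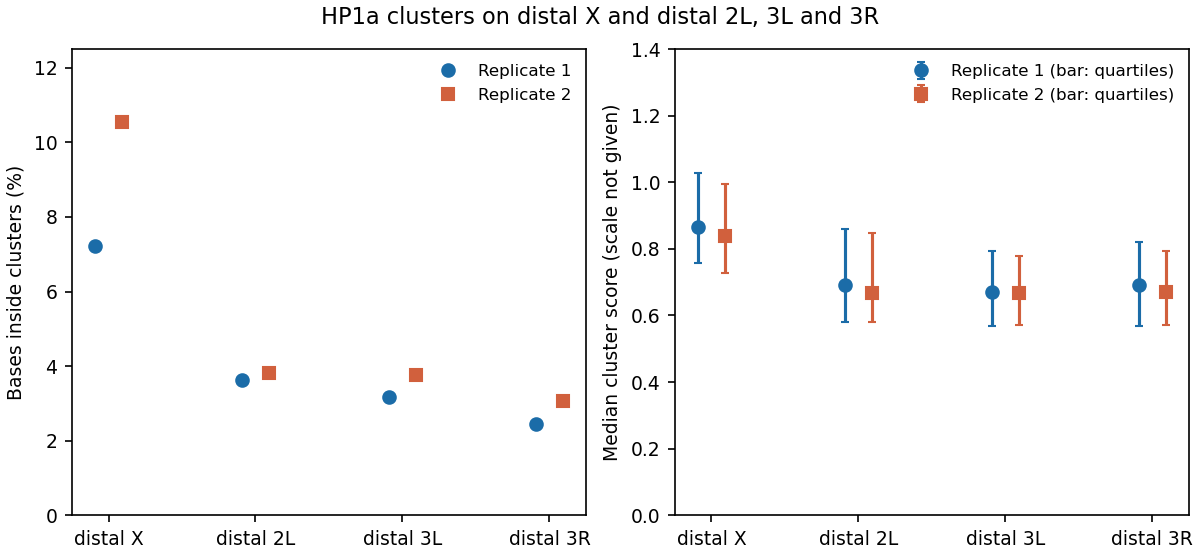
Left, percent of bases inside HP1a clusters on distal X, 2L, 3L and 3R in replicate 1 (blue circles) and replicate 2 (orange squares). Right, the median cluster score of each replicate with bars from the lower to the upper quartile; on X the medians are 0.86 and 0.84, against 0.67 to 0.69 on the other arms.

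The replicates differed in amount of coverage on X by a larger factor than on these arms. Replicate 2 covered 1.46 times as much of distal X as replicate 1, against 1.05 times as much of distal 2L, 1.18 times of distal 3L and 1.25 times of distal 3R. Replicate 2 was the higher one in 20 of 20 windows of 1 Mb on X, whereas distal 2L had 13 such windows among 21, distal 3L had 17 among 22 and distal 3R had 22 among 25. By overlap X did not stand apart: the Jaccard index of the replicates was 0.50 on distal X, against 0.58 on distal 2L, 0.49 on distal 3L and 0.50 on distal 3R. The share of combined-set clusters supported at 50% in both replicates was 26.8% on distal X, against 32.2% on distal 2L, 24.7% on distal 3L and 29.1% on distal 3R, so X lay within their range. The share met by neither was 33.9% on distal X, against 37.8%, 40.9% and 39.5% on 2L, 3L and 3R. With 1 pair of replicates, how far this ratio would vary between further pairs was not tested.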

How the data were processed

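Input reads and signal were not analysed here. The authors deposited lists of enriched regions for the 2 ChIP libraries and for a combined set, with the position and a score of every region. Coordinates are on FlyBase r5, per the file headers. Bowtie 0.12.7 is named as a tool, per the submitters' processing notes. The caller, its threshold, the handling of multiply mapping reads and the combining of replicates were steps not given in the sources used here. On distal X every combined-set start is even, unlike in the replicate lists, and the shortest cluster is 1001 bp in the combined set against 1301 bp in the replicate lists, so the lists were not made in one way, which can shift lengths and borders. No counts are listed, so depth is unknown and no interval for counting error is given. Whether the replicates are separate collections of flies is not stated, so the SD may be technical.

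Coverage, gaps and overlaps were computed with Python 3.11.15, numpy 2.4.6, pandas 2.3.3 and scipy 1.17.1, with functions tested on simulated lists. Regions were clipped to the header lengths. The 2 depleted regions of the combined set, 0 of them on X, were left out. A replicate's score within a combined-set cluster is the length-weighted mean of its clusters there. The regions named are the 10 longest, the 5 highest-scored and the 10 highest-scored supported clusters, those at the tip and the border, the 5 densest bins, the 5 longest empty stretches and, per replicate, the longest, highest-scored and longest unshared cluster. Others were chosen after their values were seen: the 2 long clusters not supported by both replicates, the runs, and the neighbours of high-scored unsupported clusters, as was the comparison of scores with other arms. The regions and lists were chosen with earlier results of these data known. No r5 genome or annotation was used here, so regions carry no sequence or gene name. Alternatives were a score minimum, merging, other borders and overlaps, a minimum length and each replicate alone.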

Additional observations from a re-analysis of the deposited data

How the results depend on the processing

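Of 41 alternatives that were set against a limit, 27 held and 14 moved. This tally includes outcomes set by construction, such as the cluster count under the score minimum, which had to move. A reversal of direction could be called only for the difference in median score, and none was found there. A count held if it stayed within 1.5 times its value, and any other value if its shift was below the SD over the replicates. That SD rests on 2 values and was 5.66 bp for median length and 0.00689 for the score difference, against 2.34 for percent coverage. Small shifts thus count as moved for the first 2 and larger ones as held for coverage, so the labels cannot be compared between results. The 10 other values from each replicate alone lie within 1 SD of their mean by construction, so they are given below as ranges and not counted. The 8 alternatives for the Jaccard index and rho have no replicate spread to be judged by: the index was 0.47 to 0.50 and rho 0.64 to 0.69. A score minimum at the distal X median of each list, which by construction removes 50% of the clusters, gave 6.00% coverage in place of 8.89%, 315 clusters in place of 629, a median length of 3001 bp in place of 2100 bp and a median gap of 22975 bp in place of 10059 bp. It gave a ratio of X to the autosomal parts of 5.37 in place of 2.69, since a cut at the X median removes more of the lower-scored autosomal clusters by construction. Merging clusters under 1000 bp apart gave a median length of 2216 bp and a median gap of 14398 bp. A border 1 Mb from the proximal end gave a ratio of 2.14. Coverage of distal X was then 8.73% in place of 8.89%, so the ratio moved mainly through the coverage of the autosomal parts. Why that coverage differed was not tested. Support at 80% of a cluster in both replicates left 123 clusters in place of 300, and 16 long ones in place of 29. The difference in median score of 0.173, examined after the values were seen, was 0.160 up to 2 kb, 0.166 from 2 to 4 kb and 0.190 for clusters that met the other replicate. Each replicate alone gave 7.23% to 10.5% coverage, 507 to 751 clusters, a median length of 2096 to 2104 bp, a median gap of 7483 to 12635 bp, a ratio of 2.38 to 3.00, a score difference of 0.168 to 0.178, 379 to 633 supported clusters and 29 to 31 long ones. The 633 are the clusters covered to at least 50% in replicate 2 with replicate 1 left out, a looser rule by construction. No paired analysis was possible because the inputs, which share replicate numbers with the ChIP libraries, have no region lists here. Distal X and the autosomal parts were set against each other within each library. Unknown depth limits every statement about a missing cluster.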

Other observations

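The most repeated score among the 1120 combined-set clusters of distal X was 0.51, shared by 15 clusters of 1001 to 1975 bp when compared to 6 decimals, and 7 of these were met by neither replicate. In all, 182 of the 1120 shared their score with another of them, as did 76 of the 507 clusters of replicate 1 and 100 of the 751 of replicate 2.

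Of the 6 highest-scored clusters that neither replicate met, 2 stood close to a supported cluster. These were the one from 326322 to 327476 and the one from 3309552 to 3311434 (score 1.68), which ended 579 bp before a cluster with a score of 1.85 of whose bases replicate 1 covered 95.8% and replicate 2 covered 96.7%. Over all 380 clusters met by neither, 26 lay under 1 kb from a cluster supported at 50% in both replicates, which is 6.84%, against 14.8% of the 371 met by both. The share was 8.22% of the 73 met by replicate 1 alone and 9.80% of the 296 met by replicate 2 alone.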
